A study of Mus musculus with 12 samples.

Results

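Disease-associated microglia (DAM) genes were followed as a group of 10 listed genes (Spp1, Gpnmb, Fabp5, Igf1, Lgals3, Cd9, Cd63, Clec7a, Axl and Cst7), chosen by symbol. Of the 10, 9 were matched among 31054 features of the single-cell RNA count tables; Clec7a was not analysed here. Each level is given in CPM (counts of a gene per 1e6 counts of the library), from the gene's unique molecular identifiers (UMIs) summed over the kept cells of a library and divided by all UMIs of those cells. A barcode counted as a cell when it held 200 or more genes and mitochondrial transcripts made up no more than 10% of its UMIs.

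The study asked how the route of dosing shapes the brain macrophages that arise from transplanted haematopoietic stem and progenitor cells (HSPCs). Busulfan-conditioned C57BL/6J mice received lineage-negative marrow HSPCs carrying a lentiviral GFP vector, either intravenously (i.v.) or intracerebroventricularly (i.c.v.). Per the study's methods, every animal also received a later i.v. dose of total marrow cells without the vector, whatever its route. CD45+, CD11b+, CX3CR1+ cells of dissociated brain were sorted into GFP+ cells, called microglia-like cells (MLCs), and GFP- cells, taken as endogenous microglia; the GFP- gate cannot tell endogenous cells from donor cells that lack the vector. For each route 1 female and 1 male were used, so 4 mice gave 4 GFP+ and 4 GFP- libraries, and each sort and route had 2 libraries. The labels give these mice as 22-28 weeks old, whereas the design text places collection 12-13 months after dosing. Sorted neurons, astrocytes, microglia and peripheral blood mononuclear cells (PBMCs) from an untreated C57BL/6J animal, labelled 8-12 weeks old, gave 1 library each.

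DAM is a state that microglia enter around amyloid plaques, degenerating neurons and myelin debris. In its usual description an early step lowers homeostatic genes and raises Apoe and Tyrobp, and a later step that needs the lipid receptor Trem2 raises phagocytic, lysosomal and lipid-handling genes, most of the 10 among them. Several of the genes are also made by other macrophages, and Lgals3 is a common gene of blood monocytes.

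The 8 libraries of treated mice held 2266 to 4555 kept cells with medians of 842 to 3499 UMIs, with the highest median in the i.v. female's GFP+ library. EGFP transcript was found at 16.8 to 33.3 CPM in GFP+ libraries and at 0 to 1 UMI in GFP- libraries. Libraries shared at most 8 cell barcodes. Of the kept cells, 87.4% to 92.9% in GFP- libraries and 49.7% to 67.4% in GFP+ libraries carried at least 3 of 8 microglia markers. CNS-associated macrophages (CAMs), the macrophages of the meninges, perivascular spaces and choroid plexus, were marked by 8 genes, all found in every treated library. At each cell's own depth, 33.8% to 48.2% of GFP+ cells and 3.89% to 13.1% of GFP- cells carried at least 3. The summed levels were 2021 to 2669 CPM and 881 to 1591 CPM. By edgeR, 3 of the 8 were called higher in GFP+ libraries, 1 lower and 4 neither way, with a median log2 fold change of 0.42. Of all genes tested, 16.6% were called higher and 15.9% lower. The study reports Ms4a7, Mrc1, Pf4 and Stab1, all in this list, as enriched in clusters of mostly MLCs. Carrying 3 of the markers therefore does not show that a cell is a CAM. The 8 monocyte markers summed to 184 to 282 CPM in i.v. GFP+ libraries and 2.94 to 4.22 CPM in i.c.v. GFP+ libraries, where 4 to 6 of the 8 were found; in the i.c.v. female Ly6c2, Plac8, Chil3 and Treml4 were at 0. In the naive neuron sort, 95.5% of cells carried oligodendrocyte markers and 0.696% neuron markers. The 9 neutrophil markers reached 5970 CPM in GFP- cells of the i.c.v. female and 1635 to 3275 CPM in i.v. GFP+ libraries, against 1.81 to 7.79 CPM in i.c.v. GFP+ libraries. P-values below measure the spread between libraries of 4 mice, 1 of each sex per route.

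Between the sorts, the genes did not move as a block. Axl, Igf1 and Cd63 were higher in GFP+ cells, Cd9 was lower, and Spp1, Gpnmb, Fabp5, Lgals3 and Cst7 did not pass the test. Over the 4 GFP+ and 4 GFP- libraries, edgeR's quasi-likelihood test called 4 of the 9 genes at an adjusted p under 0.05, 3 higher and 1 lower. Of all 11756 genes tested, 32.5% were called, 16.6% higher and 15.9% lower, so such calls were common among all genes. The median log2 fold change was 1.16 over the 9 members and 0.01 over all genes tested. CPM alone was scaled differently: over 12084 genes the median CPM ratio of GFP+ to GFP- was -0.28 on the log2 scale, a shift that the TMM scaling of the test removes.

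The promoters of the 4 called genes are shown because they are the genes whose direction separated the sorts. Each is the 250 bases before a RefSeq transcription start (GRCm38.p6), read 5′ to 3′ on the gene's own strand, with capitals for GAGGAA (the core bound by PU.1, the lineage factor of macrophages), CACGTG (the E-box of MITF and TFE factors), TGANTCA (AP-1) and GGGCGG (a GC box), each searched on both strands; no matches shown here overlapped. Windows were found for 8 of the 9 measured genes.
Axl (chr7:25788734-25788983, minus strand): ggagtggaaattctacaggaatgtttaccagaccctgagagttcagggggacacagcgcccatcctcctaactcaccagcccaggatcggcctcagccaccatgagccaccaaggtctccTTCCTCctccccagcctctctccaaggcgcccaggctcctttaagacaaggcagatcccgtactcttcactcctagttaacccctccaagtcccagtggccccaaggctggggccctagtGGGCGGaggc
Igf1 (chr10:87860861-87861110, plus strand): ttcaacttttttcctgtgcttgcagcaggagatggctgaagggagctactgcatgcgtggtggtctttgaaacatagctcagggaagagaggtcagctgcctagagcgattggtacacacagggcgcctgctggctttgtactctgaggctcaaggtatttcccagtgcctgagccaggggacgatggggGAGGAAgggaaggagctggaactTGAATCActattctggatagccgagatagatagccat
Cd63 (chr10:128909095-128909344, plus strand): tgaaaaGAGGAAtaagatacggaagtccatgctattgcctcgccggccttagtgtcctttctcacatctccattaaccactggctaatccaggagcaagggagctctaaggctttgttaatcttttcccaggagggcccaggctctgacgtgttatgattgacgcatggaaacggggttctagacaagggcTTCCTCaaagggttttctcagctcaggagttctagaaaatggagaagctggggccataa
Cd9 (chr6:125494761-125495010, minus strand): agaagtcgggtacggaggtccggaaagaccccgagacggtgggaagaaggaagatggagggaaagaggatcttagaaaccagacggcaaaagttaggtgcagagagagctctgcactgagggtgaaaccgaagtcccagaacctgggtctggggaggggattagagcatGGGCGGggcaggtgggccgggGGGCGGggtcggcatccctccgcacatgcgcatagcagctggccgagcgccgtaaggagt
GAGGAA was found once before Axl, once before Igf1 and 2 times before Cd63, and it was not in the Cd9 window, which held 2 GC boxes. GAGGAA is in 23.3% of the 32851 windows of all genes, GGGCGG in 32.7%, TGANTCA in 6.75% and CACGTG in 6.02%, and no CACGTG was in any of the 9 windows of these 8 genes (Spp1 had 2). These letter matches are descriptions and were not tested as sites.

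Of the receptors and growth factors, Axl, a TAM-family receptor tyrosine kinase that binds apoptotic cells through Gas6, had the narrowest range of the 9 over the GFP+ libraries, its highest level being 1.17 times its lowest. Its level was 201 CPM in the i.v. female, 208 CPM in the i.v. male, 235 CPM in the i.c.v. female and 227 CPM in the i.c.v. male. In the GFP- libraries of the same mice it was 56.9, 66.8, 169 and 89.4 CPM. All 4 GFP+ libraries were above all 4 GFP- libraries, and the highest GFP- library was the i.c.v. female. The fitted difference was 1.44 on the log2 scale (SE 0.33, adjusted p = 0.0112 by edgeR), and each mouse had more Axl in its GFP+ cells, by 1.39-fold to 3.53-fold.

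Igf1, the insulin-like growth factor that microglia and macrophages release as a trophic signal, ran the same way. The GFP+ libraries held 84.5 CPM in the i.v. female, 80.4 CPM in the i.v. male, 74.2 CPM in the i.c.v. female and 136 CPM in the i.c.v. male. The GFP- libraries held 24.3, 36.6, 59.7 and 42.4 CPM in that order. The groups did not overlap, the i.c.v. female being the mouse whose values lay closest together (1.24-fold). The difference was 1.46 on the log2 scale (SE 0.30, adjusted p = 0.00732).

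**Figure D1:**
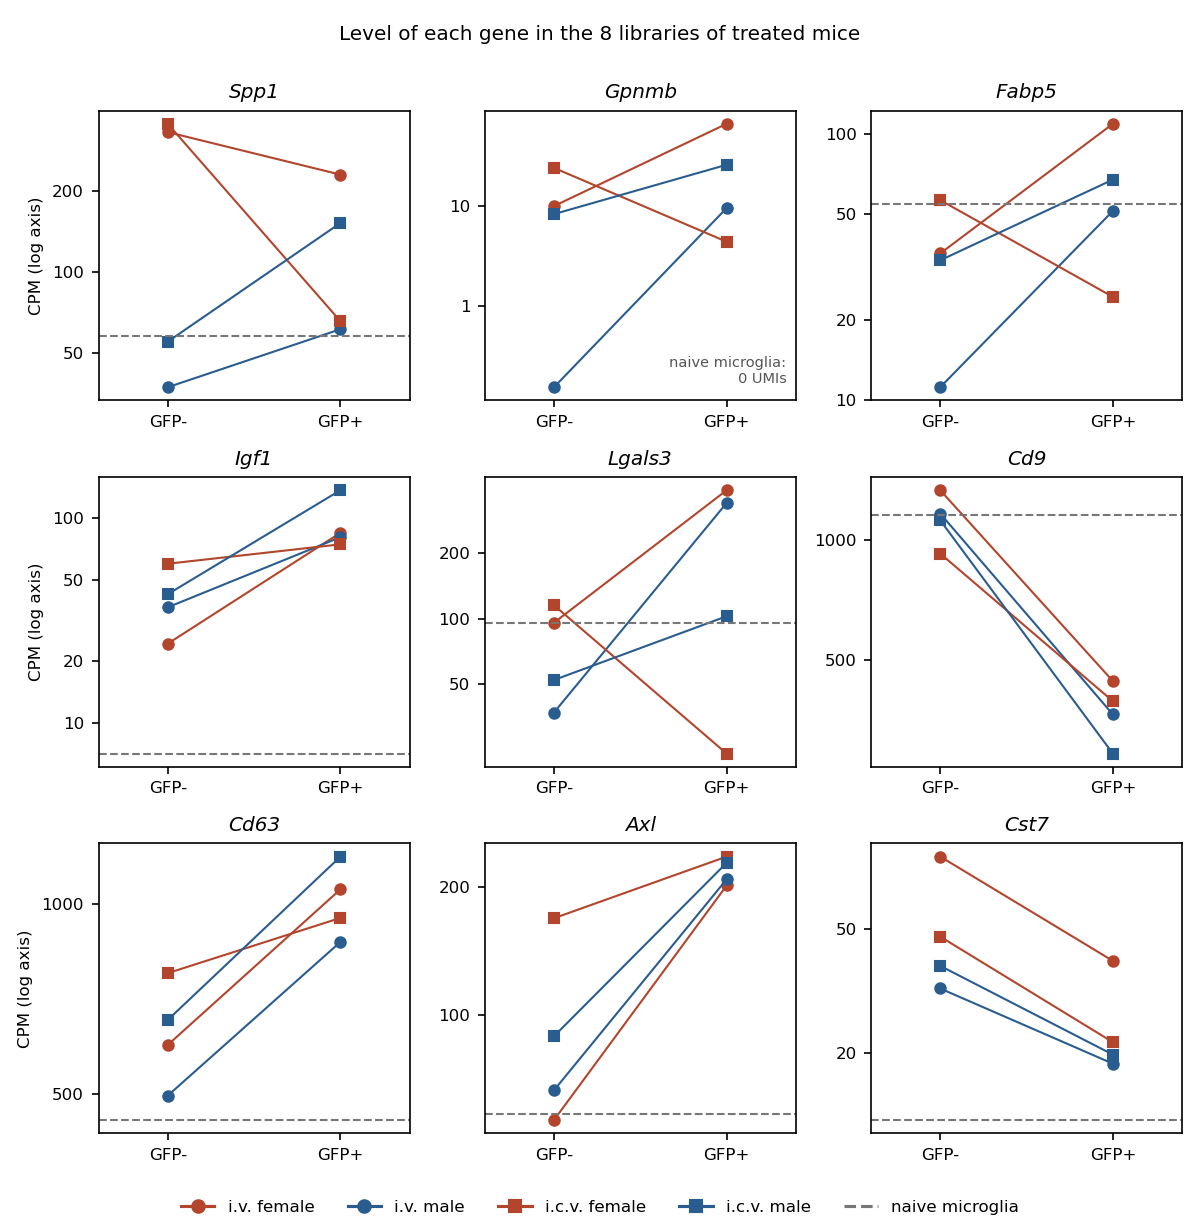
Level of the 9 genes in CPM on a log axis, with GFP- libraries at the left and GFP+ libraries at the right of each panel; each line joins the 2 libraries of a mouse (circles i.v., squares i.c.v., red female, blue male), and the dashed line is the single naive microglia library. The 4 lines run upward for Igf1, Cd63 and Axl, downward for Cd9 and Cst7, and in mixed directions for the other 4 genes.

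Of the tetraspanins, which organise membrane domains and exosomes, the pair in the list went opposite ways. Cd63, a tetraspanin of late endosomes and lysosomes, was at 1054, 871, 950 and 1187 CPM in the GFP+ libraries of the i.v. female, i.v. male, i.c.v. female and i.c.v. male. In their GFP- libraries it was at 598.5, 498, 777 and 655 CPM. The groups did not overlap, and the difference was 0.96 on the log2 scale (SE 0.18, adjusted p = 0.0059).

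Cd9, a tetraspanin of the cell surface that resting microglia also make, was at 444, 366, 395 and 293 CPM in the GFP+ libraries and at 1328, 1161, 923 and 1117 CPM in the GFP- libraries, in the same order of mice. Every GFP+ library was lower than every GFP- library, and within a mouse the GFP+ level was 0.26 to 0.43 times the GFP- level. The difference was -1.30 on the log2 scale (SE 0.16, adjusted p = 0.000939), the smallest adjusted p of the list. On CPM, 4 of the 9 genes did not overlap between sorts, 3 higher and 1 lower in GFP+. Among 12084 genes with a mean of at least 1 CPM, 38.3% did not overlap, 6.20% higher and 32.1% lower, on this scale without TMM.

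Cst7, which codes for the cathepsin inhibitor cystatin F and is often used to mark DAM, was lower in the GFP+ cells of 4 of 4 mice. The GFP+ libraries held 39.5, 18.4, 21.6 and 19.7 CPM and the GFP- libraries 85.5, 32.2, 47.3 and 38.1 CPM (i.v. female, i.v. male, i.c.v. female, i.c.v. male). The groups overlapped because the i.v. female's GFP+ library lay above the GFP- libraries of both males. Without the mouse in the model the difference of -0.72 on the log2 scale (SE 0.34) did not pass (adjusted p = 0.134). With the mouse as a block it was -0.72 and passed (adjusted p = 0.0165 by edgeR). That raised the count of called members from 4 to 5, while the calls over all genes fell from 3820 to 3158.

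Spp1, which codes for the secreted phosphoprotein osteopontin, differed more among the GFP- libraries than between sorts. Its GFP- level was 333 CPM in the i.v. female and 358 CPM in the i.c.v. female, against 37.1 CPM (i.v.) and 54.9 CPM (i.c.v.) in the males. Its GFP+ level was 231, 61.1, 65.4 and 152 CPM in the i.v. female, i.v. male, i.c.v. female and i.c.v. male. Both GFP- female libraries thus lay above all 6 other libraries, while the GFP+ libraries showed no such order. Sex here is that of the recipient: the transplanted cells came from male donors, per the study's methods. The sort difference of -0.35 on the log2 scale (SE 0.75, adjusted p = 0.749) was inside the spread, and it changed sign with the mouse as a block (0.14, adjusted p = 0.892). A fit by sex, added after these values were seen, put Spp1 2.95 higher on the log2 scale in female than male GFP- libraries (SE 0.68, adjusted p = 0.9997), and the difference of that sex effect between sorts was -2.46 (SE 0.90, adjusted p = 0.9999). Neither passed by edgeR, 0 of the 9 members were called in either fit, and 0.0319% and 0.0239% of all genes were.

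Gpnmb, a lysosomal and membrane glycoprotein of lipid-loaded macrophages, rested on few UMIs in several libraries. It was found at 67.3 CPM (1112 UMIs), 9.63 CPM (95 UMIs), 4.41 CPM (39 UMIs) and 26.1 CPM (285 UMIs) in the GFP+ libraries and at 10.1 CPM (50 UMIs), 0.15 CPM (1 UMI), 24.3 CPM (197 UMIs) and 8.36 CPM (65 UMIs) in the GFP- libraries. The exact Poisson interval of the single UMI in the i.v. male ran from 0.00388 to 0.854 CPM, so even its upper bound was below the level in every other treated library. The groups overlapped, and the log2 difference of 1.59 (SE 0.97, adjusted p = 0.232) had an interval from -0.58 to 3.77.

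Fabp5, a cytosolic fatty acid carrier, was higher in the GFP+ cells of 3 of 4 mice. Its level was 109, 51.5, 24.4 and 67.5 CPM in GFP+ libraries and 35.6, 11.2, 56.5 and 33.6 CPM in GFP- libraries, in the same order. The i.c.v. female went the other way and gave both the lowest GFP+ and the highest GFP- value. The log2 difference was 1.16 (SE 0.53, adjusted p = 0.12), and with the i.c.v. female's GFP+ library left out it was 1.43 (adjusted p = 0.0468).

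Lgals3, which codes for galectin-3, a binder of glycans on phagocytosed material and damaged lysosomes, had its highest levels in the GFP+ cells of the i.v. mice. Its GFP+ level was 390.4 CPM in the i.v. female and 341 CPM in the i.v. male, against 24.0 CPM in the i.c.v. female and 103 CPM in the i.c.v. male. The GFP- libraries held 96.0, 37.1, 115 and 52.3 CPM. Only in the i.c.v. female was the GFP+ level the lower of the pair. The difference between routes in GFP+ cells, given further on, did not pass. The log2 sort difference of 1.83 (SE 0.76) did not pass (adjusted p = 0.0922) and passed when the i.c.v. female's GFP+ library was left out (2.19, adjusted p = 0.015). In i.v. GFP+ libraries the cells with at least 3 monocyte markers held 1759 and 1379 CPM of Lgals3 and those with at least 3 dendritic cell markers 786 and 964 CPM; such cells made up at most 0.971% and 2.65% of a library. No cell of the i.c.v. GFP+ libraries carried 3 markers of either list. Outside CAM, monocyte and dendritic marker cells Lgals3 was at 584 and 484 CPM in the i.v. GFP+ libraries and at 24.7 and 158 CPM in the i.c.v. ones. Without all those cells the sort difference was 2.69 on the log2 scale (adjusted p = 0.0583 by edgeR). Monocyte or dendritic cells that showed fewer than 3 markers remain in that set, so their part in the Lgals3 level was not tested.

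Within the i.v.-dosed mice, 6 of the 9 genes were called between sorts, 5 higher and 1 lower, among 35.9% of 12540 genes (18.9% higher and 17.0% lower). The 5 that rose were Lgals3 (log2 2.85, SE 0.72, adjusted p = 0.0157), Fabp5 (2.19, SE 0.66, adjusted p = 0.0318), Axl (2.11, SE 0.28, adjusted p = 0.00106), Igf1 (1.82, SE 0.33, adjusted p = 0.00391) and Cd63 (1.20, SE 0.20, adjusted p = 0.00275). Cd9 fell by 1.23 on the log2 scale (SE 0.18, adjusted p = 0.00171). With the mouse as a block 8 were called, Gpnmb and Cst7 in addition, at adjusted p values of 0.0222 and 0.013. The block also raised the calls over all genes, from 4504 to 5555. The count was 4 with the i.v. male's GFP- library left out and 7 with its GFP+ library left out. Here and in the comparisons of routes, leaving out a library leaves 1 in its group, and that library is assumed to vary as the other groups do.

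Within the i.c.v.-dosed mice, Cd9 alone was called (-1.40, SE 0.18, adjusted p = 0.00686), which is 0 of 9 higher and 1 lower, among 5.77% of all genes (1.34% higher and 4.43% lower). Igf1 was at 1.22 (SE 0.32, adjusted p = 0.0643), Axl at 1.001 (SE 0.27, adjusted p = 0.0677) and Cd63 at 0.75 (SE 0.20, adjusted p = 0.0677), all in the direction seen in i.v. mice. With the mouse as a block 4 genes were called: Cd9, Cst7 (adjusted p = 0.0134), Axl (adjusted p = 0.0224) and Cd63 (adjusted p = 0.035). The calls over all genes rose as well, from 723 to 1283. With the i.c.v. male's GFP+ library left out the count was 0, and with either of the i.c.v. female's libraries left out it was 2.

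**Figure D2:**
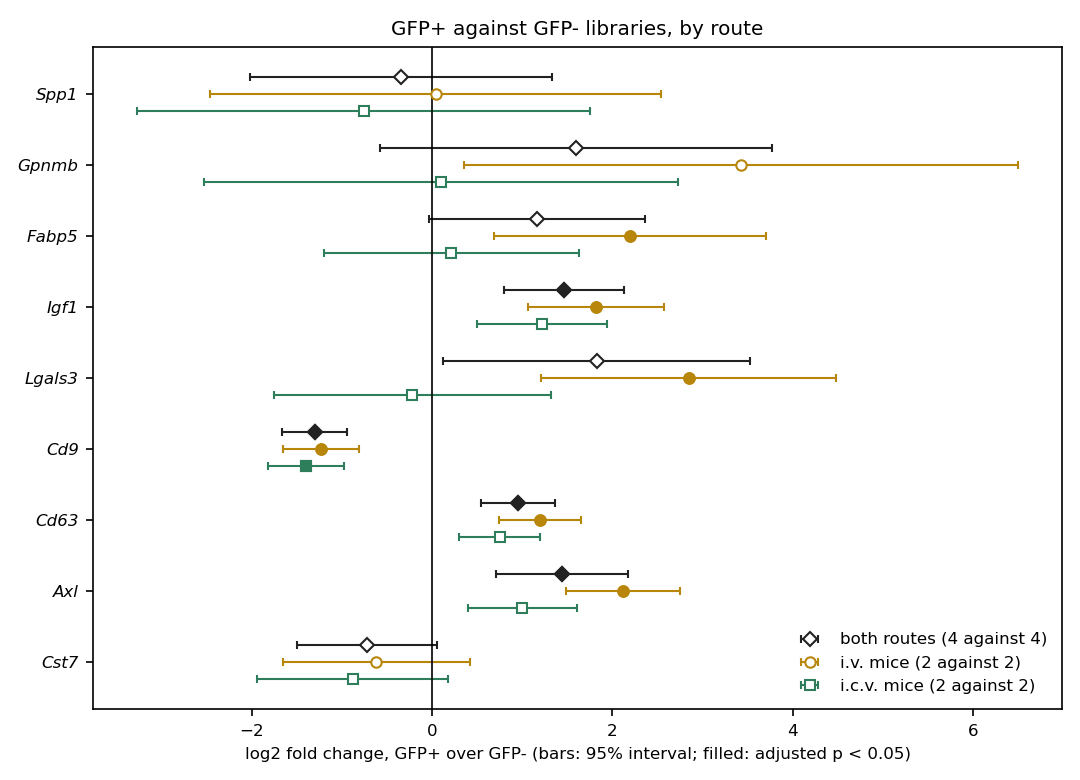
Fitted log2 fold change of GFP+ over GFP- libraries for the 9 genes, with 95% intervals as bars, over both routes (diamonds), in i.v. mice (circles) and in i.c.v. mice (squares); filled symbols have an adjusted p under 0.05 by edgeR without the mouse as a block. Cd9 is filled in all 3 fits and lies between -1.23 and -1.40, whereas Gpnmb, Fabp5 and Lgals3 lie near 0 in i.c.v. mice. There the 2 mice went opposite ways. The log2 ratios of CPM in the i.c.v. female and male were -2.46 and 1.64 for Gpnmb, -1.21 and 1.01 for Fabp5, and -2.27 and 0.97 for Lgals3.

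A difference called under one route and not the other is not itself a difference between routes, so the interaction was tested. It was called for 0 of the 9 genes by edgeR and for 1.91% of 12540 genes. An unadjusted p under 0.05 was found for 2 of the 9 members and for 2237 of the 12540 genes. The 2 members were Lgals3 (3.07 on the log2 scale, SE 0.97, adjusted p = 0.149) and Axl (1.11, SE 0.38, adjusted p = 0.172). DESeq2 called 1 member, Axl (adjusted p = 0.0482), among 568 genes. With the i.c.v. male's GFP- library left out the Axl interaction was 1.54 by edgeR.

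Between i.v. and i.c.v. GFP+ libraries edgeR called 0 of the 9 genes, among 2.78% of all genes. Of all 12540 genes 2066 had an unadjusted p under 0.05, and of the 9 members 1 did. That was Lgals3, 2.61 higher on the log2 scale in i.v. libraries (SE 0.70, interval 1.004 to 4.22, adjusted p = 0.111). It was called when the i.c.v. male's GFP+ library was left out (4.07, adjusted p = 0.0475), which sets the i.v. libraries against the i.c.v. female's alone. DESeq2 also called 0. For Axl the route difference was -0.07 (interval -0.66 to 0.53) and for Cd63 -0.05 (interval -0.50 to 0.40).

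Between i.v. and i.c.v. GFP- libraries edgeR called 0 of the 9 genes and 0 of 12540 in all (0%). Of the members, 3 had an unadjusted p under 0.05, all lower in i.v. mice: Axl (-1.18, SE 0.27), Igf1 (-0.86, SE 0.33) and Cd63 (-0.50, SE 0.20). Over all 12540 genes, 1063 had such a p in either direction. DESeq2 called 66 genes, Axl among them (adjusted p = 0.00215), and no other member. With the i.c.v. male's GFP- library left out edgeR called Axl too (-1.60, adjusted p = 0.0255), against the i.c.v. female's library alone. The CAM marker cells were 3.89% and 4.94% of the i.v. GFP- libraries and 13.1% and 9.03% of the i.c.v. ones, in the order female and male. What part the later marrow dose without the vector had in the GFP- libraries was not tested.

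Because the CAM marker cells differed so much between sorts, the levels were also taken inside and outside them. Inside, Cd63 was at 1143 to 1237 CPM in the 4 GFP- libraries and 1170 to 1343 CPM in the 4 GFP+ libraries, and Igf1 at 105 to 164 CPM and 89.5 to 149 CPM. Axl was at 175 to 251 CPM in GFP- and 222 to 262 CPM in GFP+ libraries there, and Cd9 at 319 to 466 CPM and 221 to 395 CPM. In CAM marker cells the ranges of all 4 called genes thus overlapped between sorts.

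Outside the CAM, monocyte and dendritic marker cells the sorts stayed apart for some of them. Cd9 was at 1175 to 1460 CPM in GFP- libraries and 419 to 579 CPM in GFP+ libraries, and Axl at 43.5 to 125 CPM and 172 to 240.5 CPM. Without those cells Cd9 (-1.17, adjusted p = 0.00334), Axl (1.75, adjusted p = 0.00996) and Igf1 (1.73, adjusted p = 0.025) were called and Cd63 was not (0.65, adjusted p = 0.101), so 3 of 9 were called. The calls over all genes fell too, from 3820 to 1452. A fit of the CAM marker cells alone, added after the values were seen, called 0 of 9 members and 26 of 10231 genes: Cd9 was at -0.31 (SE 0.17), Axl at 0.29 (SE 0.14), Igf1 at -0.12 (SE 0.17) and Cd63 at 0.10 (SE 0.09). It rested on 1269 GFP- and 4737 GFP+ cells. Markers were read at each cell's own depth, so flagged cells tended to hold more UMIs. In the i.c.v. male's GFP+ library, 1387 CAM marker cells held 7744737 UMIs and the 2149 cells outside the marker lists 3160100. Cells of the same kinds with too few UMIs to show 3 markers can thus remain outside. The part of depth in these differences was not tested.

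**Figure D3:**
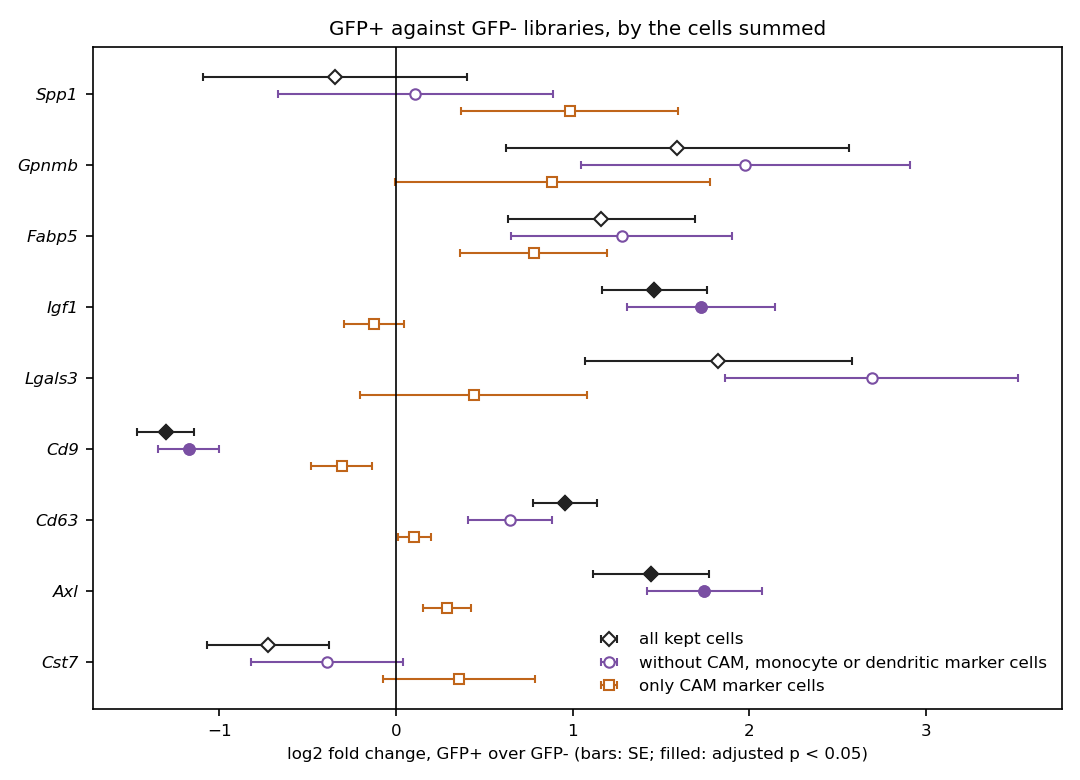
Fitted log2 fold change of GFP+ over GFP- libraries (bars SE) from all kept cells (diamonds), without CAM, monocyte and dendritic marker cells (circles) and from CAM marker cells alone (squares); filled symbols have an adjusted p under 0.05 by edgeR. Igf1, Cd9, Cd63 and Axl lie within 0.31 of 0 in the CAM marker cells.

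Because depth differed between libraries, 500 UMIs were drawn from every cell and the share of cells with at least 1 UMI of each gene was taken. All kept cells of treated mice had at least 500. For a sparse gene spread evenly over cells this share largely follows the mean level. It therefore cannot tell more cells with a transcript from more transcript per cell, and is no separate answer from CPM. Of the 8 genes found in at least 1% of cells on average, 4 did not overlap between sorts: Igf1 and Axl higher and Cd9 and Cst7 lower in GFP+. Of 6200 genes measured, 19.5% did not overlap, 4.97% higher and 14.5% lower. Gpnmb was under the 1% minimum, in 0.0763% to 0.897% of GFP+ cells and 0.0220% to 0.597% of GFP- cells.

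Cd9 had a UMI in 13.1%, 10.3%, 12.3% and 10.9% of GFP+ cells and in 38.4%, 42.9%, 36.4% and 41.7% of GFP- cells (i.v. female, i.v. male, i.c.v. female, i.c.v. male). Axl had one in 9.75%, 11.7%, 12.1% and 12.4% of GFP+ cells and in 2.43%, 2.81%, 8.01% and 3.82% of GFP- cells. Both genes separated the sorts in every library, and each exact permutation p was 0.0286, the smallest that 4 against 4 libraries can give. This test treats the libraries as independent and leaves out that each mouse gave 1 of each sort. Igf1 was in 3.44% to 6.59% of GFP+ and 0.636% to 2.39% of GFP- cells, and Cst7 in 0.397% to 1.26% and 1.51% to 2.48% (exact permutation p = 0.0286 for each, unadjusted).

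At each cell's own depth Cst7 was in 2.998% to 5.05% of GFP+ cells and 3.16% to 4.97% of GFP- cells, so its separation appeared only at equal depth. For Axl the shares at own depth were 37.0% to 46.2% and 6.43% to 18.2%, for Igf1 15.3% to 21.8% and 2.36% to 6.18%, and for Cd9 29.5% to 48.2% and 58.7% to 64.2%. Spp1 was in fewer GFP+ cells of every mouse at equal depth (0.763% to 2.29% against 1.71% to 5.76%), but the groups overlapped (exact permutation p = 0.0571). Cd63 (p = 0.0857), Lgals3 (p = 0.257) and Fabp5 (p = 0.286) also overlapped by the same exact test.

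**Figure D4:**
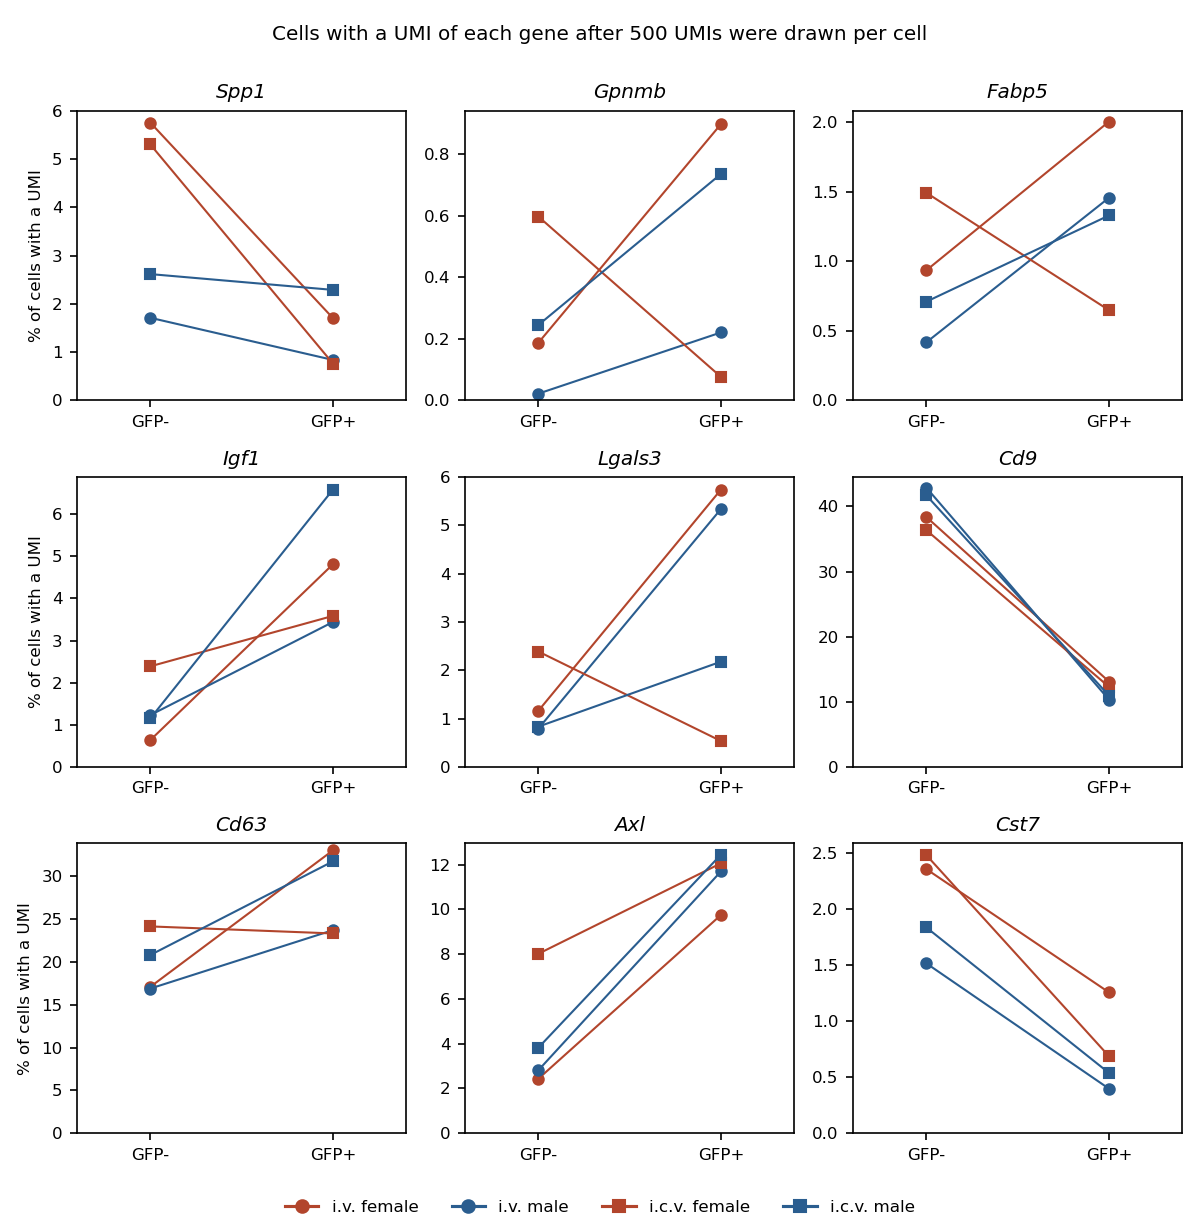
Percent of cells with at least 1 UMI of each gene after 500 UMIs were drawn per cell, from 0 upward, with GFP- libraries at the left and GFP+ libraries at the right of each panel and a line for each mouse (circles i.v., squares i.c.v., red female, blue male). For Cd9 the GFP- libraries sit at 36.4% to 42.9% and the GFP+ libraries at 10.3% to 13.1%.

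As a gauge of background, the same draw was made in sorted naive cells that are not microglia. Axl was in 0 of 482 cells of the neuron sort, which allows a share of up to 0.622%, in 0.299% of PBMCs and in 2.53% of astrocyte-sort cells, which held 47.2 CPM of Axl and so are no blank for it. Cst7 was in 0 of 1146 astrocyte-sort cells, which allows up to 0.262%, and Igf1 in 0 of the same cells. The libraries had medians of 6937, 6875 and 3395 UMIs before drawing. Their free RNA is not that of the treated libraries, so the gauge is indirect. Cd9 was in 46.7% of the neuron sort and Fabp5 in 30.3%, so these cells are no blank for either gene.

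The spread over cells was measured as the squared coefficient of variation beyond counting error, which is 0 when a gene's UMIs fall on cells at random. It could be taken for 3 members with at least 50 drawn UMIs in every treated library. Axl was more even in GFP+ cells (0.269 to 0.727 against 0.943 to 6.45) and Cd9 less even (0.935 to 2.53 against 0.338 to 0.781), each with an exact permutation p of 0.0286. Cd63 overlapped (0.667 to 1.38 against 0.460 to 0.922, exact permutation p = 0.457). Of 3209 genes measured, 8.01% did not overlap, 5.52% higher and 2.49% lower in GFP+. The count of 2 of 3 fell to 1 with another random draw and to 0 at 300 UMIs per cell.

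Spp1 lay in fewer cells than a random fall of its UMIs over cells would give. Its share of cells was 0.450 to 0.683 times the random share in GFP+ libraries and 0.726 to 0.912 times in GFP- libraries, whereas for Axl the ratios were 0.951 to 0.983 and 0.928 to 0.9704. At 500 UMIs per cell, a single cell held up to 20 UMIs of Spp1 in GFP- cells of the i.c.v. female and up to 16 in GFP- cells of the i.v. male, whereas no cell of any treated library held more than 3 of Axl. Only 2 to 14 cells of a library held 3 or more UMIs of Spp1. Other sparse members were uneven too, and like Spp1 they missed the minimum of 50 drawn UMIs, so their spread was not tested. The mean spread in GFP+ libraries was 113 for Spp1, 241 for Gpnmb, 49.6 for Cst7, 33.6 for Lgals3, 22.0 for Fabp5 and 3.42 for Igf1. In GFP- libraries it was 46.3, 41.7, 6.81, 27.3, 18.9 and 3.82 in that order.

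Spp1, Gpnmb, Fabp5 and Lgals3 met in the same cells more often than their shares would give. Over the 4 GFP+ libraries, 23 cells had UMIs of both Spp1 and Fabp5 against 2.63 expected from the 2 shares, 21 of Gpnmb and Fabp5 against 1.03, 22 of Gpnmb and Lgals3 against 2.57 and 12 of Spp1 and Gpnmb against 1.16. Spp1 with Lgals3 gave 35 against 6.16 and Fabp5 with Lgals3 38 against 6.72, and outside these 4 genes Spp1 with Cst7 gave 8 against 1.36. The i.v. female's library alone held 14 of the 21 cells with Gpnmb and Fabp5 and 17 of the 22 with Gpnmb and Lgals3. It also held 8 of the 12 with Spp1 and Gpnmb and 7 of the 8 with Spp1 and Cst7. The i.c.v. female's held 0 of each, so these sums rest largely on 1 library. In GFP- libraries the counts were smaller: 12 against 5.97 for Spp1 with Fabp5, and 8 against 0.51 for Gpnmb with Fabp5. The i.c.v. female's GFP- library alone held 9 of those 12 cells and 6 of those 8. Axl and Gpnmb shared 2 cells against 6.99 in GFP+ and 0 against 2.61 in GFP- libraries. With the other 3 genes Axl was near the expected number in GFP+ libraries (19 against 20.3 for Spp1, 18 against 18.3 for Fabp5 and 44 against 44.1 for Lgals3), and in GFP- libraries it met Lgals3 in 18 cells against 11.4. Cells of a library are not replicates, and these are descriptions with no test. Few cells held several members at once: 3 or more of the 9 were found in 1.37% to 3.29% of GFP+ cells and 0.856% to 3.31% of GFP- cells.

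**Figure D5:**
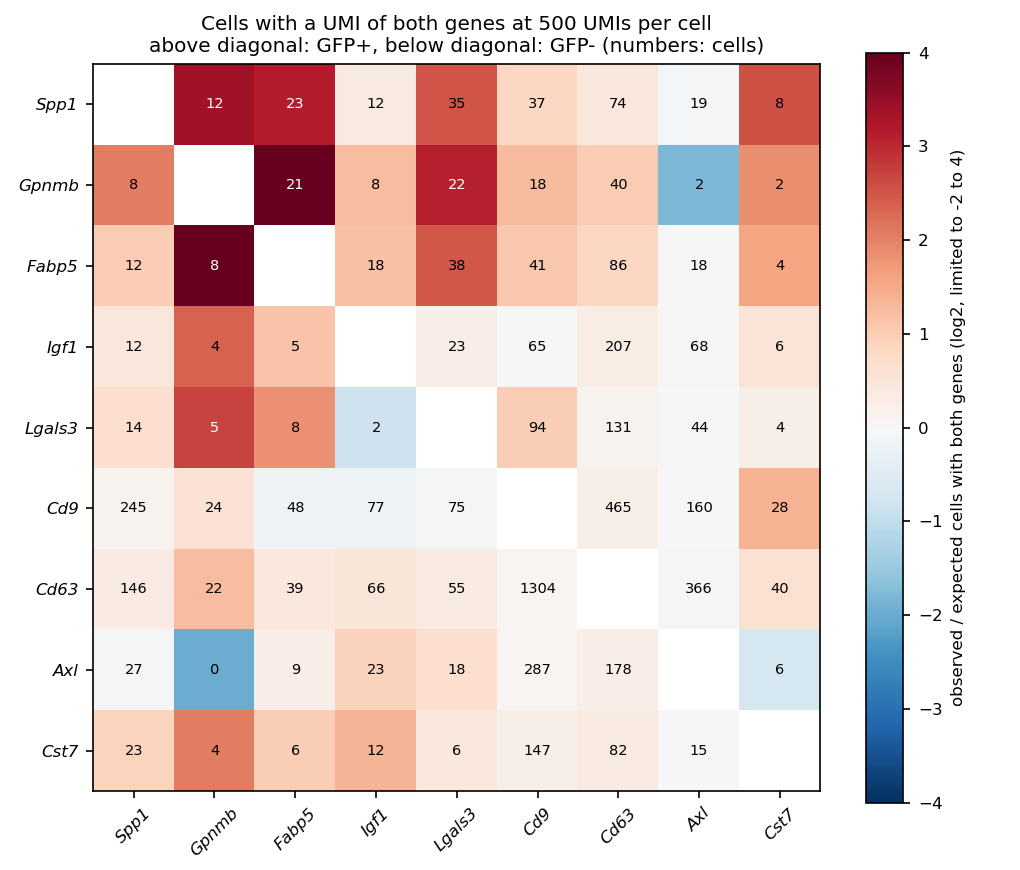
Number of cells with a UMI of both genes at 500 UMIs per cell, summed over the 4 GFP+ libraries above the diagonal and the 4 GFP- libraries below it; the colour is the log2 ratio to the number expected from the shares within each library. The 6 pairs among Spp1, Gpnmb, Fabp5 and Lgals3 are red above the diagonal, as is Spp1 with Cst7 (8 cells, 7 of them in the i.v. female's library). Gpnmb with Axl is blue on both sides.

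By the correlation over cells, averaged over the 8 treated libraries among 6200 genes, Fabp5 was closest to Spp1 (r = 0.177), and Lgals3 (0.137) and Fth1 (0.136), the ferritin heavy chain, followed. The means hide wide ranges: r of Fabp5 with Spp1 was 0.217 to 0.423 in GFP+ and -0.005 to 0.164 in GFP- libraries. With Lgals3 it ran from -0.0097 to 0.401 over the 8 libraries, and with Fth1 from 0.0031 to 0.375. Lgals3 was closest to Fth1 (0.217), Vim (0.193) and Cd74 (0.160), Cd63 to Apoe (0.225), Lyz2 (0.181) and C1qa (0.181), and Cd9 to Cst3 (0.187), with Ctss (0.136) also among its closest. Gpnmb was closest to Lyz2 (0.130). For Igf1, Axl and Cst7 no gene reached 0.1. These are weak correlations of sparse counts, and the pairs share libraries and depth.

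Other genes of the DAM programme were read against all genes tested, of which 16.6% were called higher and 15.9% lower, with a median of 0.01. The split into steps is that of the lists used here, and other descriptions can place a gene, such as Timp2, differently. Of 9 other genes listed here for the early step, 7 rose and 0 fell in GFP+ libraries, with a median log2 fold change of 0.77. In i.v. mice 7 rose (median 0.96) and in i.c.v. mice 2 (median 0.45). They included Apoe (1.85, SE 0.37, adjusted p = 0.00674), the lipoprotein of microglial lipid export, Lyz2 (1.501, SE 0.39, adjusted p = 0.0184), a lysozyme, Timp2 (0.89, SE 0.14, adjusted p = 0.00281), a metalloproteinase inhibitor, and H2-D1 (0.80, SE 0.17, adjusted p = 0.00962), an MHC class I chain.

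Of 18 other genes listed here for the later step, 4 rose, 3 fell and 11 did not pass, with a median of 0.09, shares near those of all genes. In i.v. mice 6 rose and 3 fell, and in i.c.v. mice 0 rose and 2 fell. Lilrb4a, an inhibitory receptor, rose (1.27, SE 0.30, adjusted p = 0.0134). Csf1, the growth factor of macrophages, fell by 3.06 (SE 0.23, adjusted p = 0.000126), Ctsl, a cathepsin, fell by 0.81 (SE 0.16, adjusted p = 0.00591) and Serpine2, a serine protease inhibitor, fell by 0.79 (SE 0.24, adjusted p = 0.0321). Trem2 itself was at 0.13 (SE 0.13, adjusted p = 0.465).

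Of 11 genes of TREM2 signalling, a list that shares Trem2 with the later and Tyrobp with the early one, 3 rose and 2 fell, with a median of 0.14 and a share of lower calls near that of all genes. The counts were 3 and 2 in i.v. mice and 0 and 0 in i.c.v. mice. Inpp5d, an inositol phosphatase, fell by 0.62 (SE 0.13, adjusted p = 0.00799) and the phospholipase Plcg2 fell by 0.47 (SE 0.12, adjusted p = 0.0189), whereas Tyrobp, the adaptor of TREM2, was 0.54 higher (SE 0.14, adjusted p = 0.0201) and Grb2, an adaptor, 0.43 higher (SE 0.14, adjusted p = 0.0453). Of 16 homeostatic microglia genes, 10 fell and 0 rose, with a median of -0.70; 13 fell in i.v. mice and 5 in i.c.v. mice. The largest were Sall1, a microglial transcription factor (-3.76, SE 0.38, adjusted p = 0.000405), the fructose transporter Slc2a5 (-3.68, SE 0.40, adjusted p = 0.000613), Selplg, the ligand of P-selectin (-1.71, SE 0.23, adjusted p = 0.00141), and Sparc, a matrix protein (-1.54, SE 0.28, adjusted p = 0.00508). The share of CAM marker cells given above differed between the same sorts, and its part in the 4 lists was not tested.

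The naive libraries gave the levels without transplantation, with 1 library a population, no test and exact Poisson intervals that cover counting error only. In naive microglia Gpnmb had 0 UMIs, which allows up to 3.04 CPM, Igf1 was at 7.09 CPM (2.85 to 14.6) and Cst7 at 12.1 CPM (6.28 to 21.2). All 8 treated libraries lay above these intervals for Igf1, and for Cst7 all but the GFP+ libraries of the i.v. male and the i.c.v. male. Axl at 58.7 CPM (44.6 to 75.9), Spp1 at 57.7 CPM (43.7 to 74.7), Lgals3 at 96.2 CPM (77.8 to 118), Cd63 at 455 CPM (414 to 500) and Cd9 at 1152 CPM (1086 to 1221) lay within the range of the GFP- libraries or just below it. That library had a median of 425 UMIs per cell, came from a younger animal and held 9228 CPM of the 9 neutrophil markers, and age, treatment and preparation cannot be told apart.

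Outside microglia the members split by cell type. Fabp5 was at 762 CPM in the neuron sort and 651.2 CPM in astrocytes against 120.1 CPM in PBMCs, and Lgals3 at 705 CPM in PBMCs against 3.54 CPM in astrocytes. Cd9 was at 1352 CPM in the neuron sort, whose cells carried oligodendrocyte markers, and Cd63 at 857 CPM in astrocytes against 18.2 CPM in PBMCs. Igf1, Axl and Cst7 were at 6.08, 9.12 and 4.18 CPM in PBMCs.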

How the data were processed

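Brain cells were profiled by droplet single-cell RNA sequencing. The authors aligned and counted the reads with Cell Ranger (3.1.0 per the file headers, mm10 per the submitters' processing notes) and deposited raw UMI counts per gene and cell. Cells needed 200 genes or more and mitochondrial transcripts at or under 10%. No doublet caller was run. Counts were summed per library and tested with edgeR 4.0.16 (R 4.3.3, TMM, quasi-likelihood, Benjamini-Hochberg over all genes tested, threshold 0.05), with DESeq2 1.42.0 as an alternative. Shares and spread over cells were taken after drawing 500 UMIs per cell and compared by two-sided exact permutation tests over libraries, not adjusted. Intervals (95%) and limits (3 counts) cover counting error only.

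All matched members are named. Of each other list up to 4 called genes with the largest fold in either direction are named, and for likeness over cells the 3 genes with the highest mean r, where it was at least 0.1, except 1 gene that is not reported here. Members and lists were chosen with earlier results of these data known. Lists of marker genes served to describe cells with at least 3 markers. GFP+ and GFP- libraries of a number come from the same mouse, so the mouse was also fitted as a block in edgeR. The permutation tests of share and spread leave this pairing out. The deviations of a mouse's libraries correlated at 0.205, -0.275, -0.331 and 0.013. Alternatives changed the cell filter, normalization, low-count filter, depth, cells included and libraries. On simulated counts with 200 genes changed 4-fold, 93% were recovered between sorts (11797 genes), 86.5% between routes in GFP+ libraries (12220 genes) and 73.5% for the interaction (12236 genes). Clec7a was not analysed here.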

Additional observations from a re-analysis of the deposited data

Results flagged for a closer look

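In CPM, the i.c.v. male's GFP+ library (136 for Igf1) stood apart from the other 3 GFP+ libraries, the nearest being 84.5. For Cst7 the i.v. female's GFP+ library (39.5) stood apart likewise, the nearest being 21.6. The gap to the nearest library was 0.834 and 0.849 of the group's range. Chance flags about 1 in 20 groups, and 2 of 36 groups of 4 libraries were flagged.

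Spp1 moved in opposite directions by the sex of the recipient (donors were male): the log2 ratio of CPM in GFP+ over GFP- cells averaged -1.49 in the 2 female mice and 1.10 in the 2 male mice, each mouse following its sex. In the fit added after these values were seen, the difference did not pass (adjusted p = 0.9999 by edgeR), and sex rests on 1 mouse per sex and route.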

How the results depend on the processing

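With 2 libraries per sort and route, counts near the threshold moved. Calls over all genes moved as well. Between sorts in i.v. mice they were 4504, from 1439 when thinned to 5555 with the mouse as a block. In i.c.v. mice they were 723, against 753 with DESeq2 and 1031 without a low-count filter. There the block gave 1283 and thinning 420. In i.v. mice 6 members were called between sorts, 5 to 8 under the other settings and 4 to 7 when a library was left out. In i.c.v. mice 1 member was called between sorts, 4 with DESeq2, without a low-count filter, with the mouse as a block or with cells thinned to 500 UMIs, and 0 to 2 when a library was left out. Between routes in GFP+ cells the count of 0 became 1 without the low-count filter and when thinned, and was 0 to 1 when a library was left out. In GFP- cells and for the interaction it became 1 with DESeq2 and without the filter, and was 0 to 1 when a library was left out. With CAM marker cells alone (added after seeing the data) the count between sorts was 0. The count of 2 for spread over cells was 0 at 300 UMIs and 1 with another seed, the stricter cell filter, cells of other types or CAM, monocyte and dendritic marker cells left out, or as variance over mean or share over random share.

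Signs changed for uncalled values. The Spp1 sort difference was 0.14 with the mouse as a replicate block, 0.11 without CAM, monocyte and dendritic marker cells, and -0.84 to 0.19 when a library was left out. In CAM marker cells alone Spp1 was at 0.98, Igf1 at -0.12 and Cst7 at 0.36. Between routes in GFP+ cells, without the marker cells, Spp1 was at -0.14, Cd63 at 0.0707 and Axl at 0.0775, and thinned Cd63 was at 0.19. When a library was left out, Spp1 ranged from -0.73 to 1.30, Gpnmb from -0.59 to 3.28, Igf1 from -0.65 to 0.30, Cd63 from -0.23 to 0.16 and Cst7 from -0.046 to 1.04. The cause was not tested. The block changed no calls beyond those given beside the results.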
